A study of Homo sapiens with 2 samples.

Results

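The 10 genes described here encode NEDD8, 3 proteins that help attach it to cullins (DCUN1D1, DCUN1D4 and DCUN1D5) and 6 cullins (CUL1, CUL2, CUL3, CUL4A, CUL4B and CUL5). They were chosen by name and make up 10 of the 12775 gene loci that had both an isoform model and a gene symbol. Cullins are scaffolds of ubiquitin ligases that hold a substrate adaptor at one end and a RING protein at the other. NEDD8 is a ubiquitin-like protein that is joined to cullins and activates these ligases, and the DCUN1D proteins promote its transfer. The COP9 signalosome removes NEDD8 again, and CAND1 binds cullins that lack it.

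The data came from HEK293T cells, a human embryonic kidney line that the labels also name HEK293XT. Fixed cells were incubated with APOBEC1, a cytidine deaminase, fused to a nanobody against rabbit IgG, an approach called INSCRIBE or in situ STAMP. In RBFOX2-INSCRIBE, a rabbit antibody to the RNA-binding protein RBFOX2 came first and placed the enzyme at RBFOX2, which binds UGCAUG. The enzyme-only control received the fusion with no antibody, and total RNA of each was sequenced as long cDNA reads by PacBio. With 1 library in each group, no difference below has a replicate check. What is compared is a pair of libraries rather than the treatments. No p-value was computed. The 95% intervals (exact, Clopper-Pearson) allow for counting error alone.

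An edit site was a cytosine listed with reads that carried C-to-U conversions. Sites listed in only 1 of the libraries were compared, and sites listed in both are described separately. The whole series held 109357 such sites in RBFOX2-INSCRIBE and 91111 in the enzyme-only control, or 45.0 and 40.8 per 1000 reads of the genes listed. Of the markers checked for the labelled line, NEFM and RBFOX2 were read in both libraries (281 and 263 reads for NEFM, 247 and 221 for RBFOX2, RBFOX2-INSCRIBE first). PAX2 had 3 reads in the enzyme-only table and no site in the other, and LIN28B had no isoform model. Of markers of other cell types, ALB, PTPRC, RBFOX1 and RBFOX3 had no isoform model.

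The sequences that carry the results follow, each of 30 bases from hg38, on the strand of the transcript and written 5′ to 3′. The first 4 each hold a UGCAUG and are placed to take in the most listed sites around it. The next 2 surround the best-supported DCUN1D4 site of each library. The last 2 surround the DCUN1D5 and CUL1 sites with the most converted reads. Capitals mark UGCAUG and each cytosine listed in either library. Bases are counted from 1 at the 5′ end.
CUL4B 3'UTR, chrX:120526357-120526386, minus strand: CauuuaaagauaCuuaaaCUGCAUGcaaaC
CUL1 3'UTR, chr7:148800818-148800847, plus strand: ggaCugaCccuccgugccgagggcUGCAUG
CUL5 5'UTR, chr11:108009090-108009119, plus strand: gcCguuccggucuuCcugagcgcgUGCAUG
CUL5 coding sequence, chr11:108046260-108046289, plus strand: auauucacagggaugUGCAUGcaguCuguC
DCUN1D4 3'UTR, RBFOX2-INSCRIBE, chr4:51914114-51914143, plus strand: uaucauuugguauaCuuaaCaauauuagug
DCUN1D4 3'UTR, enzyme-only, chr4:51913999-51914028, plus strand: aaaacaagagaaaaCuguuaccaugaaCaa
DCUN1D5 3'UTR, chr11:103062157-103062186, minus strand: ugagccacaccuCuuCuuagaCugaauauu
CUL1 5'UTR, chr7:148698888-148698917, plus strand: gucgcacgcagcucCaggcggggcagcccc

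In the CUL4B window the listed cytosines stood at bases 1, 13, 19 and 30, and the one at base 19 directly preceded the motif. All 4 were listed in RBFOX2-INSCRIBE only. In the CUL1 3'UTR window base 4 was listed in the enzyme-only control and base 8 in RBFOX2-INSCRIBE. In the CUL5 5'UTR window base 3 was listed in RBFOX2-INSCRIBE and base 15 in the enzyme-only control. In the CUL5 coding window, bases 26 and 30 were both listed in the enzyme-only control alone. Its motif and these bases are coding, but the first bases of this window lie in the intron before that coding exon on the canonical transcript.

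Across the 10 genes, 191 sites were listed in RBFOX2-INSCRIBE and 107 in the enzyme-only control, of which 20 were common to both. The remaining 171 and 87 sites came with 2183 and 1957 reads of the listed genes, or 78.3 and 44.5 sites per 1000 reads. Their ratio was 1.97. After scaling by the totals of the libraries, the log2 ratio was 0.71 (95% interval 0.33 to 1.10), so the genes together held more sites in RBFOX2-INSCRIBE than the library totals give, beyond counting error. Without CUL1, which contributed the most sites, 117 and 59 sites were left. The scaled log2 ratio of CUL1 was 0.67, near the pooled one, so leaving it out cannot show whether the excess was shared. It was uneven: DCUN1D5 had 28 and 9 sites, CUL4A 14 and 2 and CUL4B 32 and 8 (RBFOX2-INSCRIBE first). CUL3 and CUL5 had equal numbers in the libraries, and CUL2 and NEDD8 had sites in the enzyme-only control only. A single converted read supported most sites, 133 of 171 in RBFOX2-INSCRIBE and 70 of 87 in the enzyme-only control. All 10 genes appeared in the enzyme-only table and 8 in the RBFOX2-INSCRIBE table. Of the 12178 loci of the series with a listed site, 10182 appeared in the enzyme-only table and 10199 in the RBFOX2-INSCRIBE table.

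Of the 10 genes, 6 had at least 20 sites, the number asked of a gene before its ratio was read. Among them, 2 had a scaled log2 ratio above 1 (DCUN1D5 and CUL4B), where 16.8% of 3604 genes of the series did. Of these, DCUN1D5 fell below 1 when sites common to both libraries were kept or sites with 1 converted read were left out. CUL4B stayed above 1, but without sites of 1 converted read its ratio rests on 3 sites in RBFOX2-INSCRIBE and 0 in the enzyme-only control. None of the 6 lay below -1, where 14.6% of all genes did. Their median was 0.44, beside 0.08 over all genes. With 6 genes, these counts only describe the genes.

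**Figure D1:**
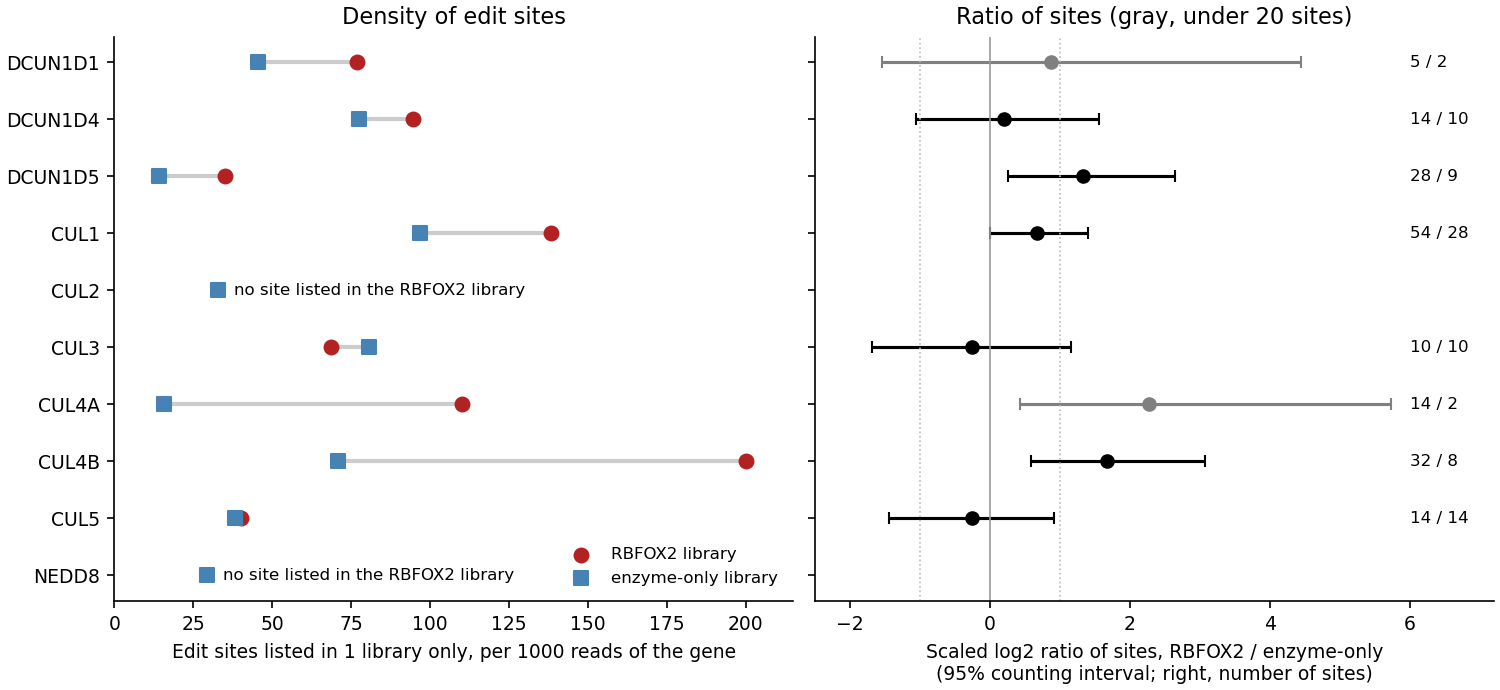
Left, edit sites per 1000 reads of each gene in RBFOX2-INSCRIBE (red circles) and the enzyme-only control (blue squares), sites of both left out. Right, scaled log2 ratio of sites with its 95% counting interval and the number of sites in each library. The intervals of DCUN1D5, CUL4A and CUL4B lie above 0, and that of CUL1 reaches down to 0.00. Those of DCUN1D1, DCUN1D4, CUL3 and CUL5 span 0. CUL4A had fewer sites than were asked of a gene before its ratio was read. The share of all genes of the series with an interval that excludes 0 was not counted, so these intervals do not set the genes apart.

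NEDD8 itself (chr14:24216807-24232849, minus strand) gave almost nothing to compare. It had 1 site in the enzyme-only control, in a non-coding exon, with 34 reads of the gene. No NEDD8 site was listed in RBFOX2-INSCRIBE, and since reads were given only for genes with a site, its depth there is unknown.

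DCUN1D4 (chr4:51843120-51916835, plus strand) had similar site numbers in the libraries. There were 14 sites with 148 reads in RBFOX2-INSCRIBE and 10 sites with 129 reads in the enzyme-only control, a scaled log2 ratio of 0.20 (-1.05 to 1.55). The difference was within counting error. No DCUN1D4 site was common to both libraries. In RBFOX2-INSCRIBE, 13 of the 14 sites lay in the 3'UTR and 1 in the coding sequence. In the enzyme-only control, 6 lay in the 3'UTR, 3 in the coding sequence and 1 in an intron. Only 1 RBFOX2-INSCRIBE site and 2 enzyme-only sites had 2 converted reads, and no DCUN1D4 site had more. These were at chr4:51914128 in RBFOX2-INSCRIBE (base 15 of its sequence above) and at chr4:51914013 and chr4:51914092 in the enzyme-only control.

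The last exon of DCUN1D4 ended at several places. Isoform models placed 8 3' ends in it, of which the ends at positions 51914349, 51914812 and 51916835 were each used by 3 models. The end at 51914349 had no AAUAAA, the common polyadenylation signal, within 40 nt upstream, and the other 2 had it. Up to the first of these ends, 7 sites were listed in RBFOX2-INSCRIBE and 6 in the enzyme-only control, or 5.47% (2.23 to 10.9) and 4.69% (1.74 to 9.92) of 128 cytosines. Between the first and second ends, 1 and 0 of 87 cytosines were listed. Between the second and the last ends, 5 and 0 of 317 cytosines were listed, 1.58% (0.51 to 3.64) and 0% (0 to 1.16). In all, 6 RBFOX2-INSCRIBE sites and no enzyme-only site lay beyond the first supported end. Each of the 6 had 1 converted read. A further end at 51913916, held by 1 model, left 11 and 4 sites beyond it. Reads were given per gene, so how many reads of either library covered the longer 3'UTR is unknown.

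No DCUN1D4 site lay within 50 nt of UGCAUG in either library. Its exons held 2 UGCAUG, in the 5'UTR at chr4:51843583-51843588 and in the coding sequence at chr4:51911109-51911114. From the share of its cytosines near these motifs, 0.64 sites in RBFOX2-INSCRIBE and 0.41 in the enzyme-only control were the expected numbers, so a count of 0 carries little information.

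**Figure D2:**
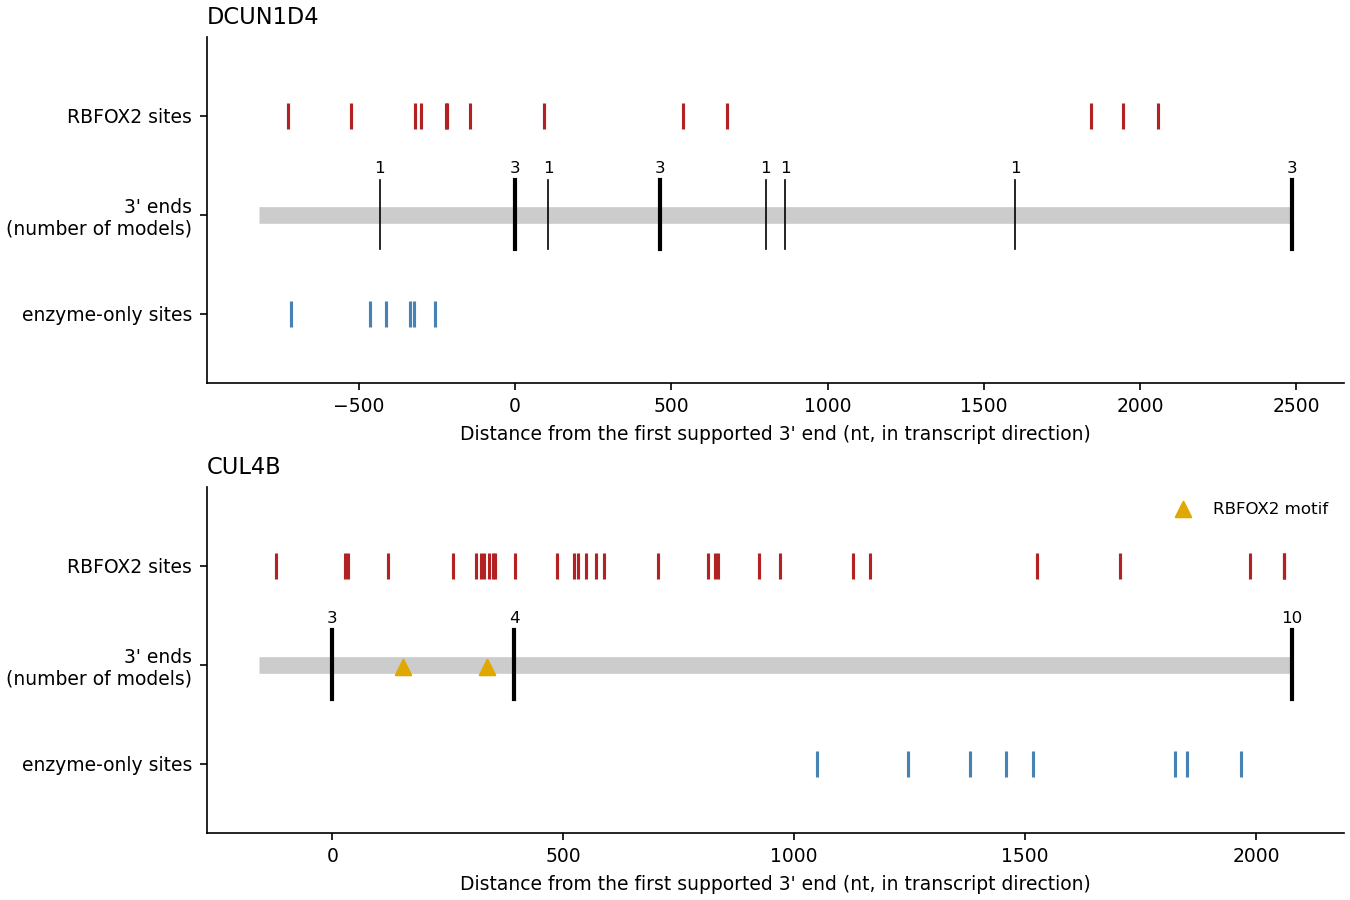
Last exons of DCUN1D4 and CUL4B. The x axis gives the distance in nt from the first 3' end used by at least 2 isoform models, red ticks are RBFOX2-INSCRIBE sites, blue ticks enzyme-only sites, black bars 3' ends with the number of models, and triangles UGCAUG; beyond 0, DCUN1D4 held 6 red and no blue ticks, and CUL4B held 30 red and 8 blue ticks, with no blue tick near the triangles.

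DCUN1D5 (chr11:103061831-103092174, minus strand) was the deepest of the 10 genes. It had 28 sites with 797 reads in RBFOX2-INSCRIBE and 9 with 637 reads in the enzyme-only control, a scaled log2 ratio of 1.32 (0.25 to 2.64). The gene was read 1.25 times as deeply in RBFOX2-INSCRIBE, and scaled by gene reads in place of library totals the log2 ratio was 1.26. With the 12 sites common to both libraries kept, the gene had 40 and 21 sites and a scaled log2 ratio of 0.68, and with sites of at least 2 converted reads in all genes it was 0.72. The tables list only sites with a converted share above 0.2% of the reads of the gene. At this depth at least 2 converted reads were needed in both libraries, while 1 was enough in the other genes. The part of this limit in the site numbers was not tested. The strongest site that was not common to both libraries lay in the 3'UTR at chr11:103062171 (base 16 of the sequence above), with 7 converted reads of 797 in RBFOX2-INSCRIBE and no listing in the enzyme-only control. The bases at 13 and 22 of the same sequence were listed in both. Exons of DCUN1D5 held no UGCAUG.

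The 12 DCUN1D5 sites common to both libraries were close in strength. They had 39 converted reads in RBFOX2-INSCRIBE and 29 in the enzyme-only control, or 4.89 and 4.55 per 100 reads of the gene. Each of the 12 followed A or U.

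DCUN1D1 (chr3:182943895-182980724, minus strand) had few sites. There were 5 with 65 reads in RBFOX2-INSCRIBE and 2 with 44 reads in the enzyme-only control, a scaled log2 ratio of 0.87 (-1.55 to 4.45), within counting error. The 5 sites all lay in the 3'UTR and the 2 enzyme-only sites in the coding sequence. In the last exon, 5 and 0 of 210 cytosines were listed, 2.38% (0.78 to 5.47) against 0% (0 to 1.74).

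CUL1, the scaffold of the SCF ligases, had the most sites. It spans chr7:148698576-148801109 on the plus strand and held 54 sites with 390 reads in RBFOX2-INSCRIBE and 28 with 289 reads in the enzyme-only control, a scaled log2 ratio of 0.67 (0.00 to 1.40). Most sites were coding, 36 and 18. The 3'UTR held 9 and 7 sites. At least 2 converted reads were seen at 5 RBFOX2-INSCRIBE sites and at no enzyme-only site. The strongest of the 5 was a coding site at chr7:148766680 with 3 converted reads.

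The 5'UTR site chr7:148698902 of CUL1 had more converted reads than any other site of the 10 genes, in both libraries. It had 11 converted reads of 390 in RBFOX2-INSCRIBE and 12 of 289 in the enzyme-only control, 2.82% (1.42 to 4.99) and 4.15% (2.16 to 7.14). The intervals overlapped. It is the capital C at base 15 of the CUL1 5'UTR sequence and follows C, whereas 18 of the 20 sites common to both libraries followed A or U. Whether it is an edit or a variant of the cell line was not tested.

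CUL2 (chr10:35010071-35090582, minus strand), a scaffold that binds substrate adaptors through elongins, had 3 sites with 91 reads in the enzyme-only control and none listed in RBFOX2-INSCRIBE. Each of the 3 lay in the coding sequence and had 1 converted read. CUL3 (chr2:224472749-224585022, minus strand), which uses BTB-domain proteins as adaptors, had 10 sites in each library, with 146 reads in RBFOX2-INSCRIBE and 124 in the enzyme-only control. Its scaled log2 ratio was -0.26 (-1.68 to 1.16). Within CUL3, 5 of the RBFOX2-INSCRIBE sites and 2 of the enzyme-only sites lay in the 3'UTR. The best-supported site of each library had 2 converted reads, at chr2:224474152 in the 3'UTR for RBFOX2-INSCRIBE and at chr2:224500401 in the coding sequence for the enzyme-only control.

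CUL4A and CUL4B are paralogs that bind DDB1, and both had more sites in RBFOX2-INSCRIBE. CUL4A (chr13:113209619-113265072, plus strand) had 14 sites with 127 reads in RBFOX2-INSCRIBE and 2 with 128 reads in the enzyme-only control, nearly the same depth. The scaled log2 ratio was 2.27 (0.42 to 5.72), from 16 sites, fewer than the 20 asked for. Of the 14 sites, 11 lay in the 3'UTR, and each of the 16 had 1 converted read. The exons of CUL4A held no UGCAUG, so its sites were not near one.

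CUL4B (chrX:120524618-120559944, minus strand) had the most sites per 1000 gene reads of the 10 genes in RBFOX2-INSCRIBE, but not in the enzyme-only control. There were 32 sites with 160 reads in RBFOX2-INSCRIBE, or 200 per 1000 reads, and 8 sites with 113 reads in the enzyme-only control, or 70.8 per 1000. The scaled log2 ratio was 1.67 (0.59 to 3.07), and 1.43 when scaled by gene reads. In RBFOX2-INSCRIBE, 30 of the 32 sites lay in the 3'UTR, as did all 8 of the enzyme-only control. The strongest was at chrX:120526165, with 3 converted reads of 160. At least 2 converted reads were seen at 3 RBFOX2-INSCRIBE sites and no enzyme-only site.

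The CUL4B sites were also unevenly placed. The last exon had 3' ends at 120526696, 120526302 and 120524618, used by 3, 4 and 10 models. Only the end at 120524618 had AAUAAA within 40 nt upstream. The stretch of 394 nt between the first and second ends holds both exonic UGCAUG of the gene. There, 10 of 60 cytosines were listed in RBFOX2-INSCRIBE and 0 in the enzyme-only control, 16.7% (8.29 to 28.5) against 0% (0 to 5.96). In the 1684 nt that follow, 20 and 8 of 291 cytosines were listed, 6.87% (4.25 to 10.4) and 2.75% (1.19 to 5.34). The intervals of the libraries did not overlap in the first stretch and overlapped in the second. These shares were not scaled by library totals or by the reads of CUL4B, 160 in RBFOX2-INSCRIBE and 113 in the enzyme-only control. How often such intervals fail to overlap in other genes of the series was not counted.

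Around the second UGCAUG of CUL4B, at chrX:120526362-120526367, 6 of the 12 exonic cytosines within 50 nt were listed in RBFOX2-INSCRIBE. They lay 19, 7 and 1 nt 5' of the motif and 5, 14 and 19 nt 3' of it. The site 1 nt away had 2 converted reads and the other 5 had 1 each. A seventh site lay 27 nt 5' of the other motif, at chrX:120526544-120526549. The enzyme-only control had no listed site near either motif.

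CUL5 (chr11:108008898-108105008, plus strand), a scaffold that uses RNF7 as its RING protein, had 14 sites in each library. Reads were 350 in RBFOX2-INSCRIBE and 368 in the enzyme-only control, and the scaled log2 ratio was -0.26 (-1.44 to 0.91). Of the 14 sites, 10 were coding in each library, and 4 and 3 lay in the 5'UTR. At least 2 converted reads were seen at 5 enzyme-only sites and at no RBFOX2-INSCRIBE site.

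UGCAUG is the motif RBFOX2 binds, and it was searched on the strand of the transcript only. The exons of the 10 genes held 13 UGCAUG, in 6 genes. Sites lay within 50 nt of 5 of them, with RBFOX2-INSCRIBE sites near 4 and enzyme-only sites near 3. At least 1 such site was found in 3 of the 8 genes listed in RBFOX2-INSCRIBE (CUL1, CUL4B and CUL5). Of the 8845 genes of the series with an exonic site in that library only, 19.9% had one. In the enzyme-only control it was 2 of 10 genes (CUL1 and CUL5), beside 14.3% of 8728 such genes. The number of sites per gene was not matched in these shares.

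Of the exonic sites of the 10 genes, 13 of 171 lay within 50 nt of UGCAUG in RBFOX2-INSCRIBE, 7.60% (4.11 to 12.6). In the enzyme-only control it was 7 of 86, 8.14% (3.34 to 16.1). The shares did not differ beyond counting error. Both compare with 3.46% of the 7100 exonic cytosines of these genes. Over all genes of the series the shares were 3.95% and 2.32%, so the share was higher in RBFOX2-INSCRIBE over all genes and not higher there in these 10 genes.

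The gene behind the share differed between the libraries. CUL4B gave 7 of the 13 RBFOX2-INSCRIBE sites, where its cytosines gave an expected number of 1.15, and none in the enzyme-only control, where 0.29 were expected. With so few expected, that count of 0 carries little information. The expected numbers spread the sites of a gene evenly over its exons. In CUL4B, however, 30 of 32 RBFOX2-INSCRIBE sites and all 8 enzyme-only sites lay in the 3'UTR, which holds both motifs. Numbers expected within the 3'UTR alone were not computed. CUL5 gave 3 sites in RBFOX2-INSCRIBE and 6 in the enzyme-only control, where 1.60 were expected in each. A single gene decided the order of the libraries, as values chosen after seeing the data showed. Without CUL4B the shares were 4.32% in RBFOX2-INSCRIBE and 8.97% in the enzyme-only control, and without CUL5 they were 6.37% and 1.39%. CUL1 gave 3 and 1 sites, with 3.42 and 1.78 expected.

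No site within 50 nt of UGCAUG had more than 2 converted reads in either library. At the coding UGCAUG at chr11:108046275-108046280, enzyme-only sites lay 5, 9 and 39 nt 3' of the motif with 2 converted reads each. A further site, 42 nt 3' of it, was listed in both libraries. At the 5'UTR motif, chr11:108009114-108009119, the RBFOX2-INSCRIBE sites lay 38, 25 and 22 nt 5' of it and the enzyme-only sites 44, 37 and 10 nt 5', each with 1 converted read. At the CUL1 3'UTR motif, chr7:148800842-148800847, RBFOX2-INSCRIBE sites lay 17 nt 5' and 15 and 29 nt 3', and an enzyme-only site lay 21 nt 5'.

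**Figure D3:**
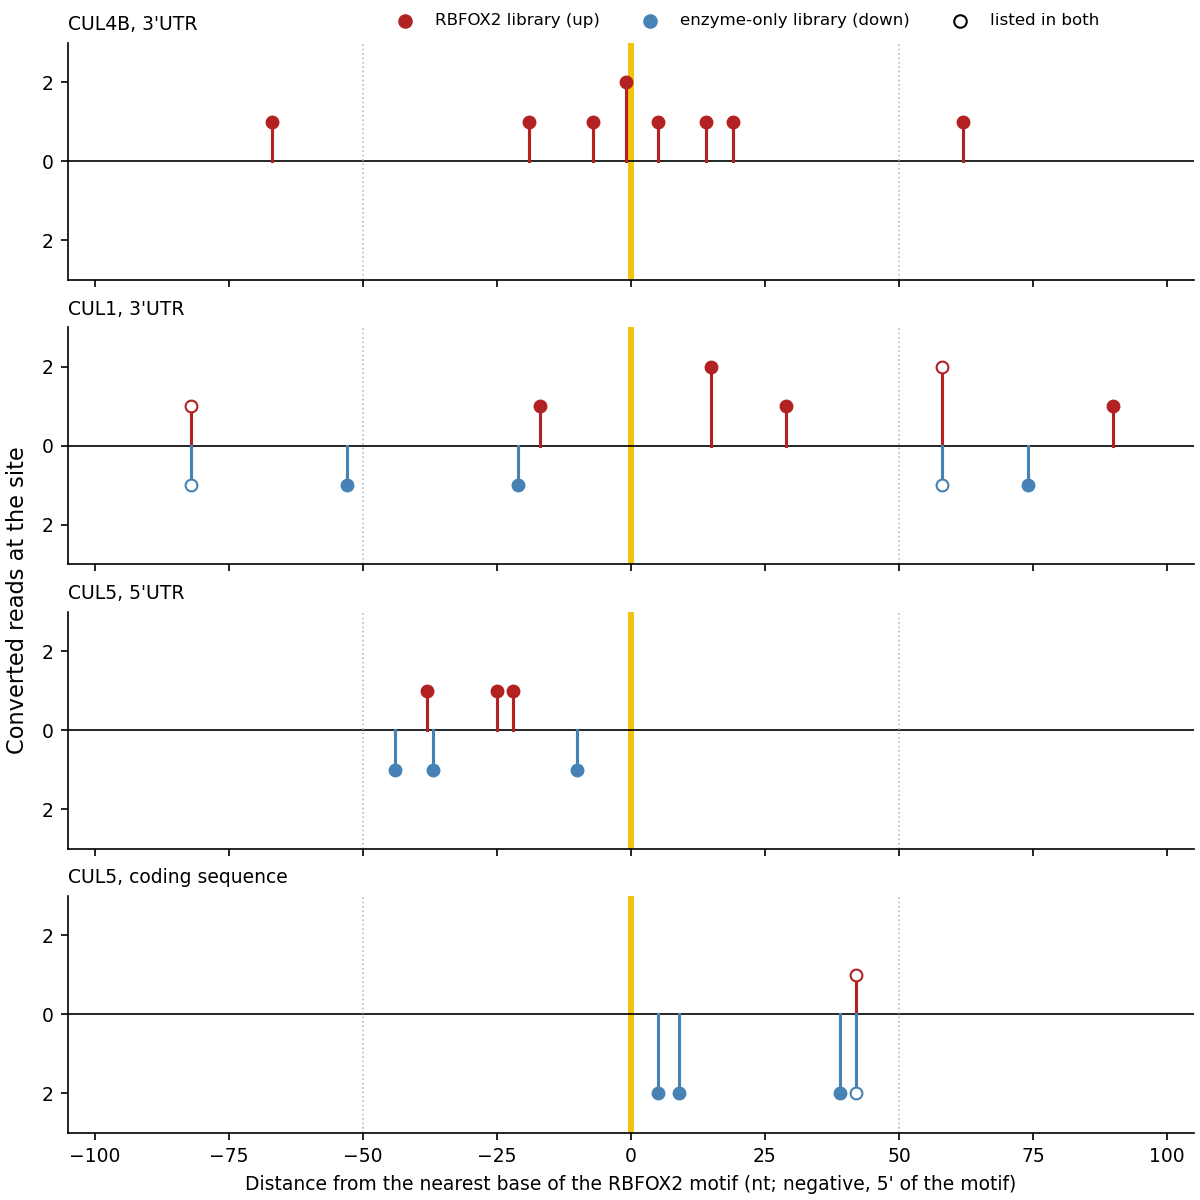
Converted reads at each listed site by its distance in nt from the nearest base of UGCAUG (yellow), RBFOX2-INSCRIBE upward in red and the enzyme-only control downward in blue, open circles for sites listed in both; dotted lines mark 50 nt. Around the CUL4B motif every site is red, at the CUL5 coding motif the 3 filled sites are blue, and the CUL1 and CUL5 UTR motifs have both.

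By region, 47.4% (39.7 to 55.1) of the RBFOX2-INSCRIBE sites were in a 3'UTR, against 33.3% (23.6 to 44.3) in the enzyme-only control, beside 30.8% of the exonic cytosines of these genes. Coding sequence held 42.7% (35.2 to 50.5) and 55.2% (44.1 to 65.9). In both regions the intervals of the libraries overlapped. All genes of the series had 40.4% and 34.3% of sites in a 3'UTR.

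APOBEC1 is known to prefer a cytosine that follows A or U. Of the sites in these genes, 78.4% (71.4 to 84.3) in RBFOX2-INSCRIBE and 75.9% (65.5 to 84.4) in the enzyme-only control did so, beside 53.3% of the exonic cytosines. Both libraries lay above the cytosines available, and their intervals overlapped. Over all genes of the series the shares after A or U were 71.7% and 63.9%. More than 1 converted read was seen at 22.2% (16.2 to 29.2) and 19.5% (11.8 to 29.4) of sites, and 6.99% and 10.3% without DCUN1D5, the only one of the 10 genes with 500 reads or more. Among sites of all genes, 14.3% and 9.45% had more than 1 converted read.

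Of coding sites that could be placed on the canonical transcript, 35 of 72 in RBFOX2-INSCRIBE would leave the amino acid as it is, 28 would change it and 9 would make a stop codon. For the 46 of the enzyme-only control these numbers were 17, 22 and 7. A stop codon would result at 12.5% (5.88 to 22.4) and 15.2% (6.34 to 28.9) of sites, beside 11.8% of all coding cytosines of these genes.

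**Figure D4:**
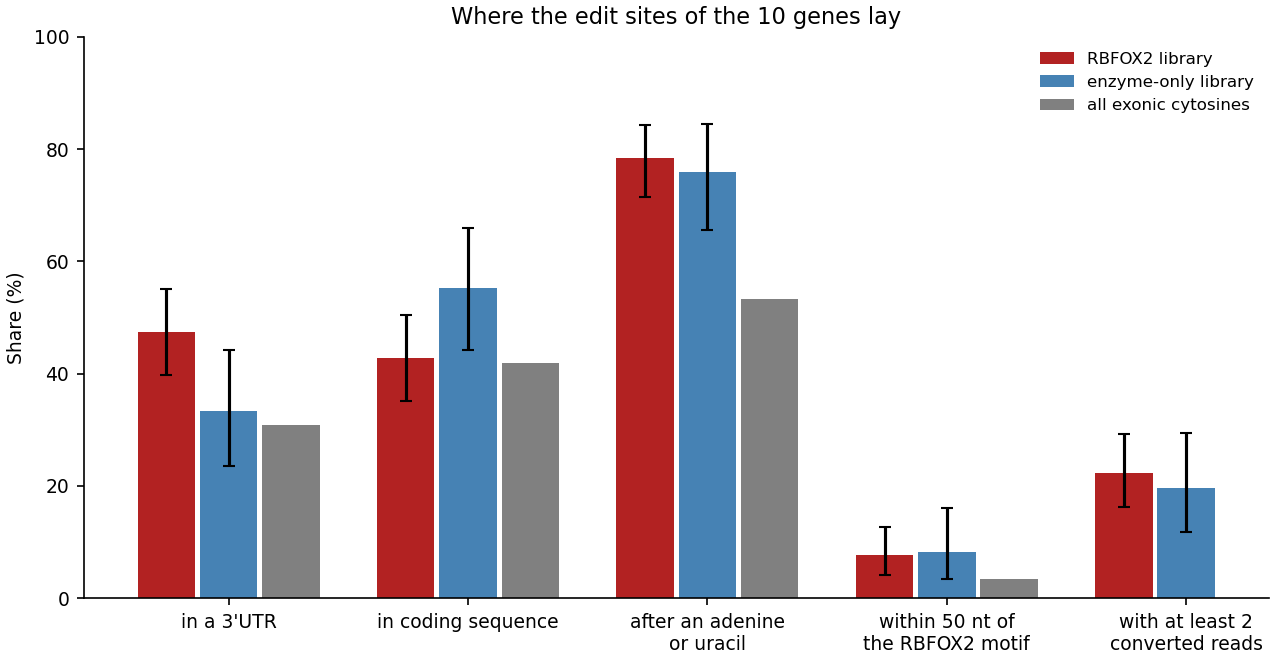
Share in percent of the sites of the 10 genes with each feature, in RBFOX2-INSCRIBE (red) and the enzyme-only control (blue), with 95% counting intervals, and of all exonic cytosines of the genes (gray, where it applies). The libraries' intervals overlap for every feature, and both libraries exceed the gray bar for cytosines after A or U.

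Sites in the last exon beyond the first 3' end of any isoform model were counted as distal. Of genes with at least 5 distal sites, 34.2% of 1932 had a scaled log2 ratio above 1 and 15.6% below -1. The 10 genes included 3 such genes, DCUN1D1 with 5 and 0 distal sites, DCUN1D4 with 11 and 4 and CUL4B with 30 and 8. Their scaled log2 ratios were 3.20, 1.09 and 1.58. CUL4A had 3 and 0 distal sites and CUL3 had 1 and 1, both under the minimum. Of the 43 3' ends of the 10 genes, 19 had AAUAAA within 40 nt upstream, beside 39.6% of 29321 ends in the series. Only 1 of the 43 had 60% or more A in the 20 nt downstream, a composition known from internal priming, beside 11.6% in the series.

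The editsC of an isoform is given here as the share of its exonic cytosines that were listed in that library and not in the other. Sites were given per gene, so isoforms of a gene share them and are not replicates. Of 134 isoforms of the 10 genes, 98 had a higher editsC in RBFOX2-INSCRIBE, 15 a lower one and 21 the same. These values were not scaled by library totals, and RBFOX2-INSCRIBE held more sites over the whole series, 109357 against 91111. The same count over all isoforms of the series was not made, so this one does not set the 10 genes apart. All 15 isoforms of DCUN1D5, all 26 of CUL1 and all 18 of CUL4B were higher. The median editsC of DCUN1D5 was 11.1% in RBFOX2-INSCRIBE and 3.61% in the enzyme-only control, and 15.7% and 8.33% with the sites common to both libraries kept. For CUL4B the medians were 6.10% and 1.23%, and for CUL1 8.30% and 5.08% (9.04% and 5.77% with common sites kept). CUL4A had 15 of 17 isoforms higher and none lower, with medians of 3.33% and 0.50%.

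DCUN1D4 isoforms were divided. Of its 14, 7 were higher in RBFOX2-INSCRIBE, 3 lower and 4 equal, with medians of 2.45% and 2.21%. The isoform PB.14196.14, which ends at 51916835, had 14 sites in RBFOX2-INSCRIBE and 9 in the enzyme-only control among 702 cytosines, 1.99% and 1.28%. The isoform PB.14196.9, which ends at 51914349, had 8 and 9 sites among 302 cytosines, 2.65% and 2.98%. In this pair the order of the libraries differed by the 6 distal sites described above, each with 1 converted read. Among other models of the short end, at 51914348, PB.14196.17 had 8 and 9 sites and PB.14196.35 had 7 and 7. The order at the short end was thus not the same in all its models.

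**Figure D5:**
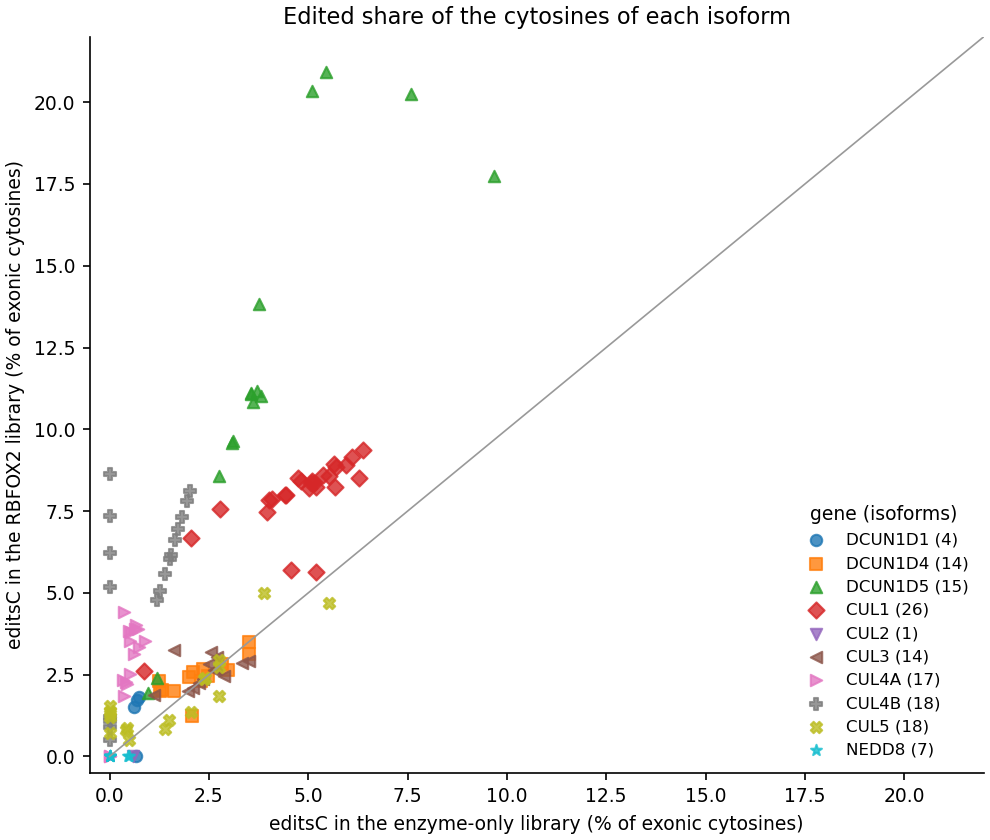
editsC in percent of exonic cytosines of each isoform, sites of both libraries left out, in the enzyme-only control (x axis) and RBFOX2-INSCRIBE (y axis), with the line of equal values; 98 of the 134 isoforms lie above it, and DCUN1D5 isoforms reach 20.9%.

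The rest of the pathway was taken from a list of 27 genes for the enzymes that load and remove NEDD8, the COP9 signalosome, CAND proteins, further cullins and their partners. Of these, 23 had listed sites and 15 had at least 20. Above 1 lay 3 of the 15 (16.8% of all genes) and below -1 lay 1 (14.6% of all genes), with a median of 0.30. The 3 were UBA3, a subunit of the enzyme that activates NEDD8, at 1.05, RNF7 at 1.42 and COPS4, a subunit of the COP9 signalosome, at 1.48. COPS4 was the highest, with 38 sites and 249 reads in RBFOX2-INSCRIBE and 11 sites and 203 reads in the enzyme-only control.

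The lowest was DDB1, the adaptor of CUL4A and CUL4B, at -4.01. It had 2 sites with 500 reads in RBFOX2-INSCRIBE and 33 with 469 reads in the enzyme-only control. The limit on the listed share falls between these depths, so a DDB1 site needed 2 converted reads in RBFOX2-INSCRIBE and 1 in the enzyme-only control, and the numbers of sites are not comparable. NAE1, the other subunit of the activating enzyme, had 9 sites with 539 reads in RBFOX2-INSCRIBE and none in the enzyme-only table. SENP8, which processes NEDD8, and CUL9 were listed in the enzyme-only table only, with 1 and 3 sites. UBE2F, DCUN1D2, DCUN1D3 and SKP1 had no assigned locus.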

How the data were processed

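C-to-U edits were analysed in 1 RBFOX2-INSCRIBE and 1 enzyme-only library of HEK293T cells, grouped by the descriptions in the labels. In the study's methods the authors used pbmm2 to align reads to hg38 and called edits with their own code. Those methods name another library kit than the labels, so the tables may come from another run. The authors deposited, for every site, the count of converted reads, the count of reads of its gene, and an edit fraction, which is the first count divided by the second and always above 0.2%. A deposited confidence score was not used. Isoform models of both libraries together were deposited without expression values.

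Loci were matched to GENCODE 44 with bedtools 2.31.1, each taking the gene of its strand with which its exons overlapped most. A position with several annotations was called coding where any transcript codes there, otherwise 3'UTR, otherwise 5'UTR, and otherwise a non-coding exon or an intron. Sites of loci without an isoform model that lie inside CUL1 or CUL5 (2 in RBFOX2-INSCRIBE and 7 in the enzyme-only control) were not counted. Ratios used a pseudocount of 0.5 and the libraries' totals of unshared sites, and their intervals the RBFOX2-INSCRIBE share of the sites of both libraries (scipy 1.17.1). Expected numbers near UGCAUG came from the share of each gene's exonic cytosines. A 3' end was supported where at least 2 models ended within 20 nt. The ratio and the motif search were tested on simulated data. Annotated variants were not removed here. The study's methods state that edits found in every sample, and then dbSNP variants, were taken out as likely SNPs. Whether the deposited sites had passed that step was not tested.

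All 10 members are named. Of the pathway list, the genes past a log2 ratio of 1 or -1 (UBA3 and RNF7 after their values were seen), the highest and lowest, and those without a row are named. Single sites were named for having the most converted reads in their gene, for lying near UGCAUG or for being listed in both libraries. The members and lists were chosen with earlier results of these data known. No protein sequences were used here. A further marker of another cell type is not reported here.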

Additional observations from a re-analysis of the deposited data

How the results depend on the processing

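The ratios of the single genes moved beyond their counting intervals only when sites with 1 converted read were left out, to -1.60 for DCUN1D4, 2.60 for CUL1 and -4.32 for CUL5. These rest on 1 and 2, 5 and 0, and 0 and 5 sites (RBFOX2-INSCRIBE first), so those of CUL1 and CUL5 depend on the pseudocount of 0.5. Of 54 recomputed gene ratios, 51 stayed within the interval, and none of the ratios whose interval excluded 0 changed sign where it could be recomputed. DCUN1D1, CUL2, CUL4A and NEDD8 kept no site with at least 2 converted reads, so they have no ratio in that setting. With at least 2 converted reads, 38 sites in RBFOX2-INSCRIBE and 17 in the enzyme-only control were left, and the sites of DCUN1D4 beyond its first supported 3' end fell from 6 to 0 in RBFOX2-INSCRIBE. The same setting gave 3'UTR shares of 36.8% and 35.3% (RBFOX2-INSCRIBE first, here and below), A or U shares of 86.8% and 76.5%, and shares near UGCAUG of 5.26% and 17.6%. A window of 200 nt gave 19.9% and 20.9% near UGCAUG, and GCAUG gave 13.45% and 13.95%. In settings added after seeing the data, the shares near UGCAUG were 4.32% and 8.97% without CUL4B, and 6.37% and 1.39% without CUL5. Counting 3'UTR before coding sequence raised the 3'UTR shares to 79.5% and 72.4%. Genes under 500 reads had 6.99% and 10.3% of sites with at least 2 converted reads. Over all genes, 605 lay above 1 and 525 below -1. These numbers were 71 and 35 with at least 2 converted reads, 1087 and 960 with at least 10 sites per gene, and 119 and 108 with at least 50, where fewer or more genes were read. For distal segments, 661 and 301 became 368 and 143 with at least 10 sites, and 392 and 183 with supported 3' ends only. No paired analysis was possible because each group held a single library, numbered 1 (enzyme-only) and 2 (RBFOX2) in the replicate label. Depth limits all of this: most sites had 1 converted read, reads per position are unknown, and deeper genes need more converted reads to be listed.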
